A study of Mus musculus with 14 samples.

Results

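Fibroblast growth factors (FGFs) are ligands for a family of receptor tyrosine kinases, and 10 genes of this system were considered: the ligands Fgf1, Fgf2, Fgf7, Fgf9, Fgf10, Fgf16 and Fgf18 and the receptors Fgfr1, Fgfr2 and Fgfr3. They were picked by name from the table of gene values, and 7 of the 10 are among its 15894 listed genes. Fgf7, Fgf10 and Fgf16 are not listed and were not analysed here. Of the 7 that are, Fgf2 and Fgfr1 were higher on the ventral than on the dorsal side of female hearts. Fgfr1 was also higher in all male ventral than in all male dorsal libraries whose labels agree on the region, without passing the test there. The share of all genes with groups apart in this way was not counted. The Fgf2 result came with an opposite change in an overlapping antisense gene, and counted as 1 locus both genes together had a log2 change near 0.

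RNA was measured in the epicardium and subepicardium, the outer layer of the heart, dissected at E16.5 from fetal mouse hearts. A pool of 2 hearts gave each of the 14 libraries, which was made from poly(A) RNA. All carry the genotype label Tbx18Cre, a Cre recombinase driven from an epicardial gene, with no treatment and no floxed allele named, and the study calls them wild type. There are 3 female ventral libraries (numbers 1 to 3), 3 female dorsal libraries (1 to 3), 4 male ventral libraries (4 to 7) and 3 male dorsal libraries (4 to 6). A further male library, number 7, is dorsal by its title and source name and ventral by its tissue field. Its values are given but it entered no main test. All females are in pools 1 to 3 and all males in pools 4 to 7, so sex and series of pools cannot be told apart. The hearts came from several litters, and which pool holds which litter is not stated.

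FGFs bind their receptors together with heparan sulphate, a sugar chain carried by syndecans and glypicans at the cell surface, and the active receptor signals mainly through the MAP kinase cascade. In the fetal heart, ligands of the FGF9 group from the epicardium and endocardium act on cardiomyocytes through FGFR1 and FGFR2, and FGF10 acts on epicardium-derived cells. FGF2 promotes the growth of blood and lymphatic vessels. The study compared dorsal with ventral regions to ask whether the signalling surroundings of growing coronary lymphatic vessels differ between the sides, and males with females.

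Values are the authors' normalized CPM (counts scaled to library size), from which whole reads could be recovered. Reads on listed genes numbered 13.9 to 25.2 M per library, so 3 reads, taken here as the floor of detection, correspond to 0.135 to 0.253 normalized CPM. Epicardial markers were present in every library, and the sum of 10 of them ran from 1749 to 2788 normalized CPM in female ventral, 340 to 640 in female dorsal, 2055 to 5999 in male ventral and 1584 to 4291 in male dorsal libraries. The sum of 8 ventricular cardiomyocyte markers was at least 15852 normalized CPM in each library, so the dissected layer also held heart muscle RNA. None of 5 lung epithelium markers is listed.

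One stretch of sequence bears directly on the ligand that moved most. On chromosome 3 of GRCm38, Fgf2 lies on the plus strand (chr3:37348346-37410108) and Nudt6, a Nudix hydrolase gene whose transcript is antisense to Fgf2, lies on the minus strand (chr3:37404910-37420211). Their annotated exons (GENCODE M21) share 640 bases, which is 9.44% of the exonic bases of Fgf2 and 38.2% of those of Nudt6. Of these, 450 bases are coding in Nudt6 and 0 in Fgf2. A 30-base piece of the overlap (chr3:37405188-37405217) is printed as each transcript carries it, to show that 1 genomic site gives both RNAs.
Fgf2, plus strand: tccatgctgaggtcaattttgtcaaaccct
Nudt6, minus strand: agggtttgacaaaattgacctcagcatgga
The lines are reverse complements. Neither the library kit nor the counting is stated to mark strand. A read from this stretch therefore cannot be told to come from Fgf2 or from Nudt6. The same holds for 316 further exonic bases of Nudt6 (18.8%) shared with Spata5, a listed gene on the plus strand. Values of Nudt6, and its sums with Fgf2, may thus hold reads of Spata5. Fgf2 also shares 255 exonic bases (3.76%), 183 of them coding in Fgf2, with the unlisted same-strand gene Gm43439.

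Among the ligands, Fgf2 is a heparin-binding factor that leaves cells without a classical signal peptide. Its female ventral libraries 1 to 3 stood at 12.965, 20.4 and 18.4 normalized CPM, and the female dorsal libraries 1 to 3 at 1.13, 1.22 and 6.61. Every ventral value was thus above every dorsal one, and dorsal libraries 1 and 2 held only 24 and 22 reads of Fgf2. The test was limma on log2(normalized CPM + 1), with Benjamini-Hochberg adjustment over all genes tested, and a gene counts as called at an adjusted p under 0.05. The mean was 17.3 ± 3.84 (SD, n = 3) ventrally against 2.99 ± 3.14 (n = 3) dorsally, a log2 change of 2.44 (limma, SE 0.475, 95% interval 1.38 to 3.503, adjusted p = 0.00564). In these bulk libraries, fewer cells of a type and less RNA per cell cannot be told apart.

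Nudt6 moved in the opposite direction in the same libraries. Female ventral libraries 1 to 3 had 5.24, 5.89 and 8.42 normalized CPM, and female dorsal libraries 1 to 3 had 16.9, 24.5 and 21.4. All dorsal values were above all ventral ones, and the log2 change was -1.55 (limma, SE 0.263, adjusted p = 0.0032). The sum of both genes was 18.2, 26.2 and 26.9 normalized CPM ventrally and 18.1, 25.7 and 28.0 dorsally. Libraries of the same number had sums within 1.19 normalized CPM of each other, whereas Fgf2 alone differed between them by up to 19.1. Refitted as 1 locus, an alternative chosen after seeing the data, the sum had a log2 change of -0.01 (limma, SE 0.234, 95% interval -0.53 to 0.52, adjusted p = 0.986). Fgf2 made up 68.7 to 77.5% of the sum in the ventral libraries and 4.77 to 23.6% in the dorsal ones. The gene totals do not show how many reads fell in the shared stretch, and its part in the result was not tested.

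**Figure D1:**
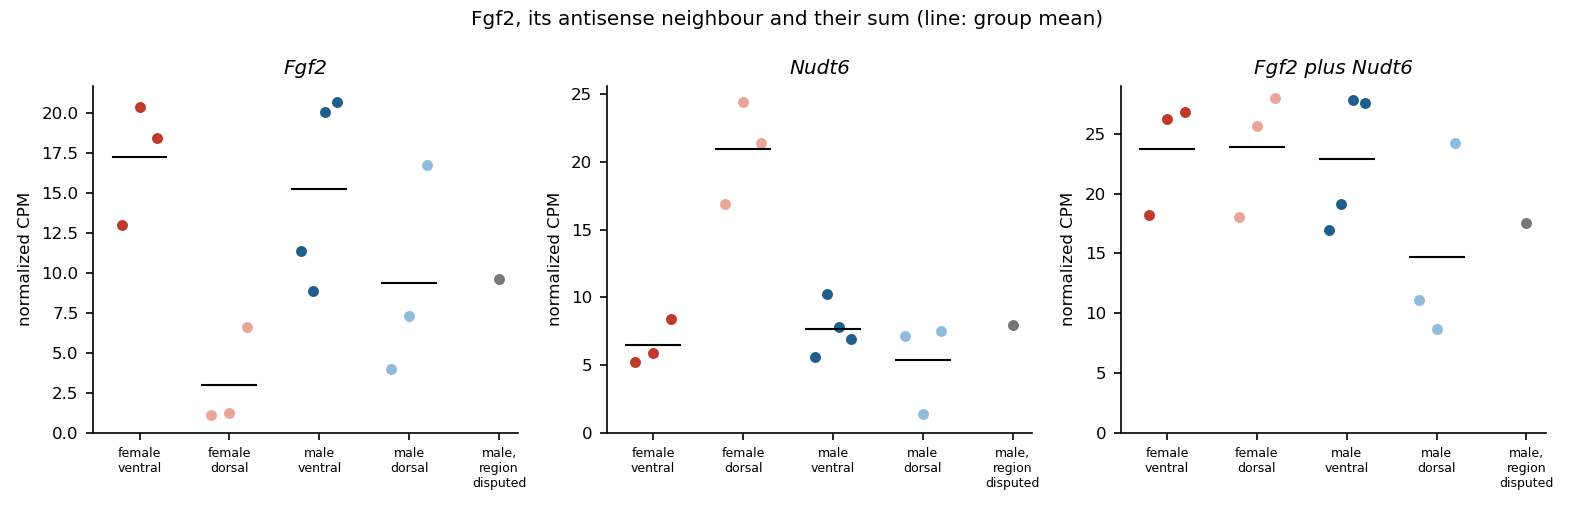
Normalized CPM of Fgf2, of its antisense neighbour Nudt6 and of their sum on a linear axis from 0, by group of libraries, with 1 point per library and a line at the group mean. Female ventral and female dorsal libraries are apart for Fgf2 and, the other way round, for Nudt6, while their sums cover 18.2 to 26.9 ventrally and 18.1 to 28.0 dorsally.

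In males, Fgf2 measured 11.4, 8.88, 20.05 and 20.7 normalized CPM in ventral libraries 4 to 7, and 3.97, 7.28 and 16.8 in dorsal libraries 4 to 6. The groups overlapped, with dorsal library 6 above ventral libraries 4 and 5, and the log2 change was 0.77 (limma, SE 0.45, 95% interval -0.23 to 1.77, adjusted p = 0.452). Ventral libraries 4 to 6 were each higher than the dorsal library of the same number, by 1.20 to 2.87 times. Nudt6 measured 5.601, 10.3, 7.84 and 6.91 ventrally and 7.17, 1.41 and 7.52 dorsally, with dorsal library 5 far below the rest (34 reads). The sum of Fgf2 and Nudt6 was 16.98, 19.2, 27.9 and 27.6 in male ventral libraries 4 to 7 and 11.1, 8.69 and 24.3 in male dorsal libraries 4 to 6, overlapping groups with a log2 change of 0.70 (limma, SE 0.34, adjusted p = 0.389). The male library of disputed region had 9.60 for Fgf2 and 7.98 for Nudt6, inside the range of the male libraries of settled region.

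With both sexes in 1 fit and sex as a covariate, Fgf2 had a log2 change of 1.55 (limma, SE 0.409, 95% interval 0.68 to 2.42, adjusted p = 0.0196), with overlapping regions. This call was lost with edgeR (adjusted p = 0.0569), in limma without female ventral replicate 2 (adjusted p = 0.0509), without female dorsal replicate 2 (adjusted p = 0.0507) and as 1 locus with Nudt6 (log2 change 0.37, limma adjusted p = 0.281). The regional change of Fgf2 in males minus that in females was -1.67 log2 units (limma interaction, SE 0.718, adjusted p = 0.276), which did not pass the test. For Nudt6 the corresponding value was 2.18 (limma, SE 0.57, adjusted p = 0.0582); it passed under 6 of 25 alternatives. These were DESeq2 (adjusted p = 0.0196), and in limma the replicate number as a block (0.0367), the block with the GC and length trend removed (adjusted p = 0.040), the disputed library taken as ventral (0.0371), and leaving out male dorsal replicate 4 (0.0475) or 6 (0.0308). As 1 locus the difference was 0.71 (limma, SE 0.448, adjusted p = 0.485).

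Fgf1, the other ligand without a classical signal peptide, binds all the FGF receptors (chr18:38838673-38929472, minus strand). Female ventral libraries 1 to 3 had 21.5, 17.5 and 16.9 normalized CPM, and female dorsal libraries 1 to 3 had 15.0, 21.97 and 22.9. The regions overlapped, and the log2 change was -0.08 (limma, SE 0.227, 95% interval -0.59 to 0.43, adjusted p = 0.819). In males it measured 26.1, 23.9, 20.8 and 24.8 in ventral libraries 4 to 7, and 27.2, 31.3 and 25.9 in dorsal libraries 4 to 6, with 17.2 in the library of disputed region. These regions overlapped too (log2 change -0.22, SE 0.178, limma adjusted p = 0.581). Fgf1 was the member with the smallest p for sex: over both regions its mean was 1.33 times higher in males on the fitted scale, a log2 difference of 0.41 (limma, SE 0.138, 95% interval 0.12 to 0.71, adjusted p = 0.0655), which missed the threshold. In the sex comparison the male and female values overlapped, and the library of disputed region lay below all other male libraries.

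Fgf9, a ligand that the epicardium and endocardium send to the myocardium (chr14:58070547-58112720, plus strand), showed little difference between the regions. Female ventral libraries 1 to 3 had 10.8, 10.8 and 12.9 normalized CPM, and female dorsal libraries 1 to 3 had 8.75, 10.9 and 15.0. The dorsal values spanned the ventral ones, and the log2 change was 0.02 (limma, SE 0.261, 95% interval -0.56 to 0.61, adjusted p = 0.955). In male ventral libraries 4 to 7 it measured 5.19, 14.8, 13.7 and 12.5, and in male dorsal libraries 4 to 6 it measured 14.8, 11.5 and 14.9. Male ventral library 4 was the lowest of all libraries, and the male regions overlapped (log2 change -0.31, SE 0.345, limma adjusted p = 0.698).

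Fgf18, a ligand best known from cartilage and bone growth (chr11:33117430-33147400, minus strand), had the lowest median normalized CPM of the 4 ligands over the 14 libraries. It measured 6.23, 4.88 and 8.71 in female ventral libraries 1 to 3, and 3.53, 6.45 and 5.96 in female dorsal libraries 1 to 3. In male ventral libraries 4 to 7 it measured 4.12, 4.31, 5.33 and 1.85, and in male dorsal libraries 4 to 6 it measured 6.4999, 3.79 and 2.11. Regions overlapped in both sexes. The log2 change was 0.27 in females (limma, SE 0.326, 95% interval -0.46 to 0.998, adjusted p = 0.567) and -0.03 in males (SE 0.407, 95% interval -0.94 to 0.87, adjusted p = 0.98). Levels were on average lower in males, by a log2 difference of -0.52 that did not pass the test (limma, SE 0.266, adjusted p = 0.235).

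**Figure D2:**
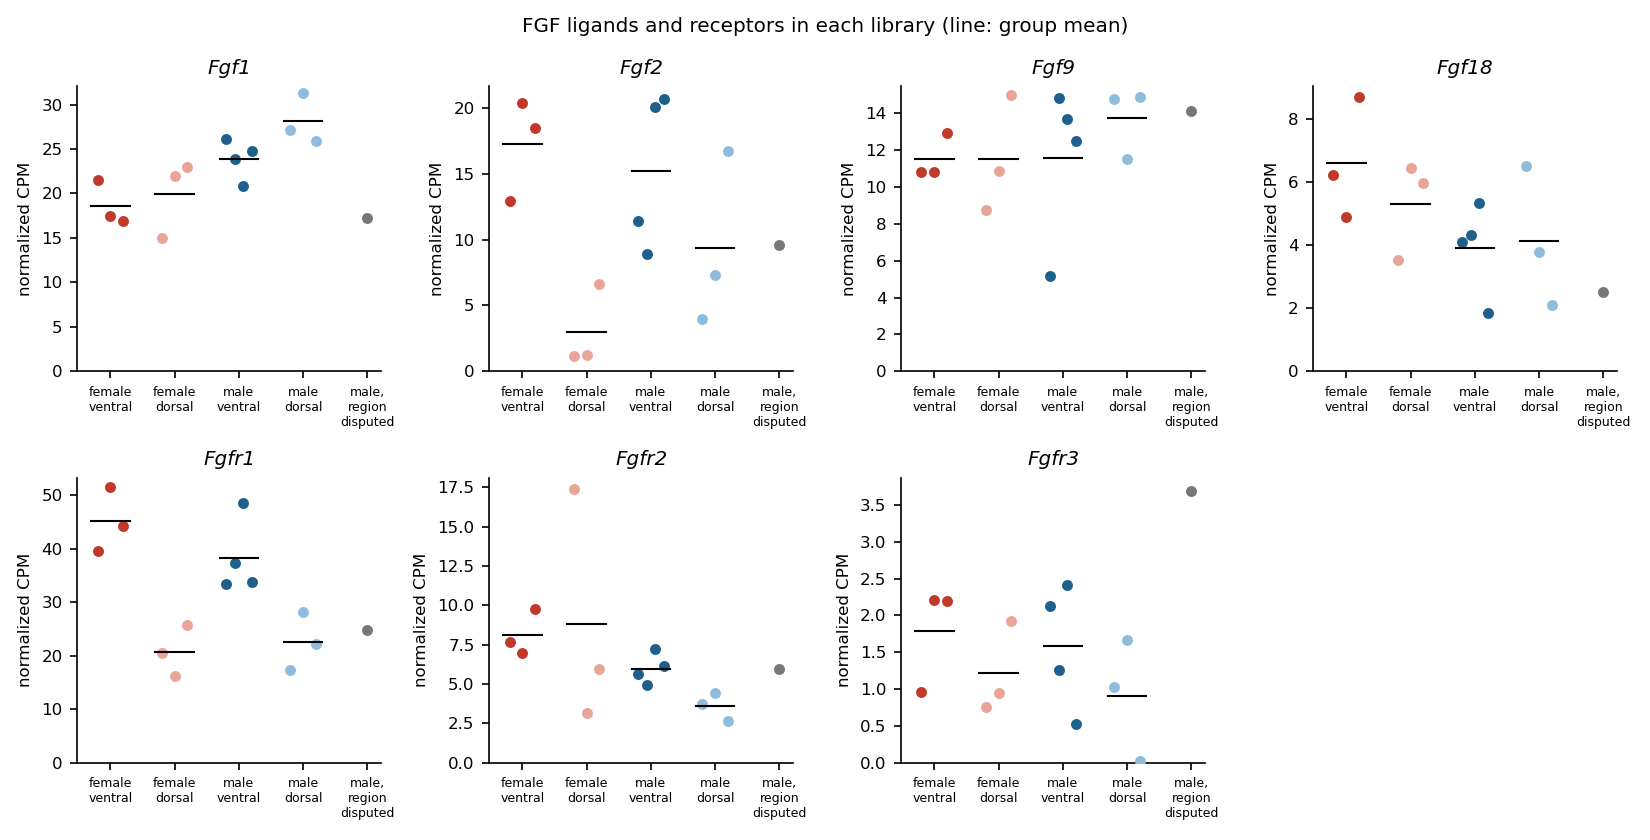
Normalized CPM of the 4 ligands and 3 receptors on linear axes from 0, by group of libraries, with 1 point per library and a line at the group mean; the male library whose labels disagree on its region stands alone. Fgfr1 is higher in all 7 ventral than in all 6 dorsal libraries, and Fgfr2 has a single high point of 17.4 in the female dorsal group.

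Among the receptors, Fgfr1 is the main FGF receptor of the embryonic myocardium and of many mesenchymal cells (chr8:25513654-25575718, plus strand). Female ventral libraries 1 to 3 had 39.6, 51.6 and 44.4 normalized CPM, and female dorsal libraries 1 to 3 had 20.5, 16.2 and 25.7. Each ventral value was well above each dorsal one. The mean was 45.2 ± 6.05 (SD, n = 3) ventrally and 20.8 ± 4.77 (n = 3) dorsally, a log2 change of 1.10 (limma, SE 0.205, 95% interval 0.64 to 1.56, adjusted p = 0.00481). In male ventral libraries 4 to 7 Fgfr1 measured 33.4, 37.4, 48.7 and 33.8, and in male dorsal libraries 4 to 6 it measured 17.4, 28.1 and 22.2. The male groups did not overlap either. The male log2 change of 0.75 had a 95% interval above 0 for this single gene (limma, SE 0.217, 0.26 to 1.23), but the adjusted p was 0.285. The library of disputed region had 24.8 normalized CPM, among the male dorsal values and below every male ventral one.

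Over both sexes, all 7 ventral libraries were above all 6 dorsal libraries for Fgfr1, and the log2 change was 0.91 (limma, SE 0.157, 95% interval 0.58 to 1.24, adjusted p = 0.00678, the 72nd smallest p of 15772 genes). Its regional change did not differ detectably between the sexes, with a difference of -0.35 (limma, SE 0.304, 95% interval -1 to 0.30, adjusted p = 0.631). Only 1.11% of its 60-base windows also occur in other genes, among them the unlisted antisense gene Gm16159. Epicardial and fibroblast markers moved with it. In females 9 of 10 epicardial genes (median log2 change 2.27) and 5 of 8 fibroblast genes (median 1.34) were called higher ventrally. Over all genes the median was 0.01, with 14.5% called higher ventrally and 13.3% higher dorsally. Macrophage markers (5 of 6, median 1.85) and lymphatic endothelial markers (3 of 5, median 1.74) were higher ventrally too. The largest changes of these lists were those of C1qa (2.08) and Lyve1 (3.34). Not called were the macrophage marker Adgre1 (0.57, limma adjusted p = 0.311) and the lymphatic markers Reln (2.065, 0.078) and Prox1 (0.18, 0.706). The log2 change of Prox1 was -0.20 in males and -0.02 over both sexes. Of 6 smooth muscle markers, Myh11 (-1.68), Cnn1 (-1.29) and Rgs5 (-1.05) were higher dorsally and Notch3 (0.75) ventrally, and of 6 blood endothelial markers 0 were called. In males 0 of these markers were called, beside 0 of all 14917 genes tested. The male medians were 0.67 for epicardial, 0.43 for fibroblast, 0.83 for macrophage, 0.47 for lymphatic endothelial, -0.50 for smooth muscle and -0.89 for blood endothelial genes. The part of these cell types in the Fgf2 and Fgfr1 results was not tested.

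Fgfr2 encodes the receptor through which mesenchymal ligands reach epithelia and, in the heart, epicardium-derived cells (chr7:130162451-133123350, minus strand). Female ventral libraries 1 to 3 had 7.70, 6.98 and 9.77 normalized CPM, and female dorsal libraries 1 to 3 had 17.4, 3.19 and 5.96. Dorsal library 1 stood above all other libraries while dorsal libraries 2 and 3 lay below the ventral ones, and the log2 change was 0.16 (limma, SE 0.476, 95% interval -0.90 to 1.22, adjusted p = 0.831). Without female dorsal replicate 1 it was 0.75. That library also had the highest sum of atrial cardiomyocyte markers, 15610 normalized CPM against 1340 to 4136 in the other libraries, and the part of this in its Fgfr2 value was not tested. In male ventral libraries 4 to 7 Fgfr2 measured 5.65, 4.95, 7.20 and 6.15, and in male dorsal libraries 4 to 6 it measured 3.70, 4.45 and 2.63. The male groups did not overlap, but the log2 change of 0.62 did not pass the test (limma, SE 0.296, 95% interval -0.04 to 1.27, adjusted p = 0.386). Part of its annotated exons, 3.04%, is shared with Ctbp2, which is listed, on the same strand.

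Fgfr3, best known as a brake on cartilage growth (chr5:33721674-33737068, plus strand), had the lowest median normalized CPM of the 7 members. It held 0 to 95 reads per library, and 1 of 14 libraries was at the floor. Female ventral libraries 1 to 3 had 0.965, 2.21 and 2.20 normalized CPM, and female dorsal libraries 1 to 3 had 0.762, 0.953 and 1.92. In male ventral libraries 4 to 7 it measured 2.12, 1.26, 2.41 and 0.532, and in male dorsal libraries 4 and 5 it measured 1.03 and 1.66. Male dorsal library 6 had 0 reads, which allows up to 3 reads or 0.166 normalized CPM, counting error only. The largest count was 95 reads (3.69 normalized CPM) in the library of disputed region, above all libraries of settled region. The regions overlapped, with log2 changes of 0.33 in females (limma, SE 0.362, adjusted p = 0.523) and 0.48 in males (limma, SE 0.436, adjusted p = 0.632). Moreover, 13.9% of its exonic bases overlap the unlisted opposite-strand gene G630022F23Rik.

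**Figure D3:**
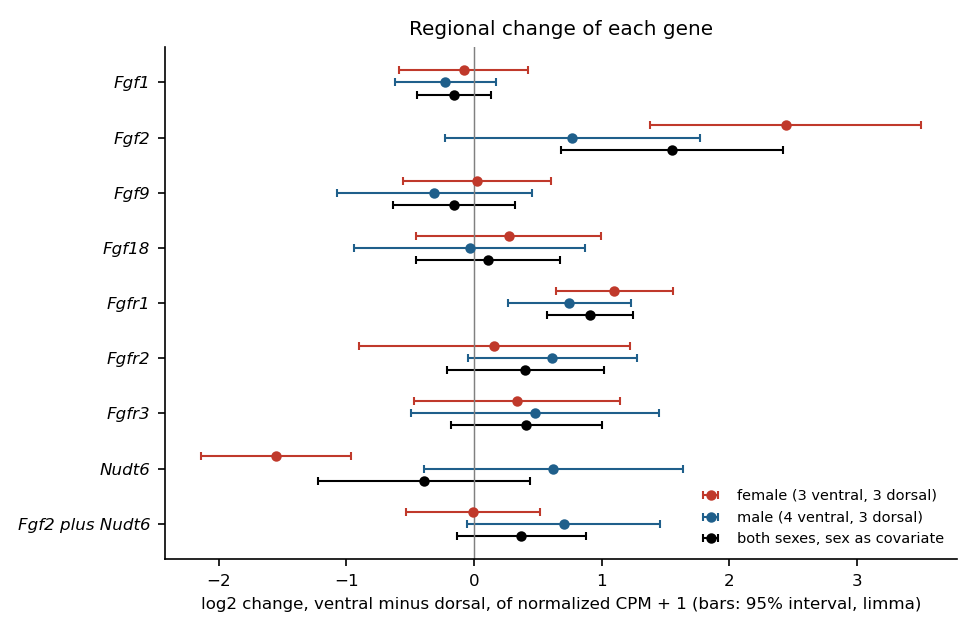
Log2 change of normalized CPM + 1, ventral minus dorsal, for each listed FGF ligand and receptor, for Nudt6 and for the sum of Fgf2 and Nudt6; points are limma estimates and bars 95% intervals for females, for males and for a joint fit of all 13 libraries of settled region. The 3 intervals of Fgfr1 lie above 0, and the female interval of Fgf2 lies above 0 while that of the summed locus, -0.53 to 0.52, is centred near 0.

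Counted over the 7 genes, 2 (Fgf2 and Fgfr1, 28.6%) were called between the regions of female hearts, both higher ventrally, beside 27.8% of all 14411 genes tested (14.5% higher ventrally and 13.3% higher dorsally). The share of members called was thus close to that of all genes. In male hearts 0 of 7 were called by limma, beside 0% (0 of 14917) of all genes. At an unadjusted p under 0.05 there were 1 member (Fgfr1) and 2083 genes. In males edgeR called 0 genes, DESeq2 150 and limma with the replicate number as a block 76, none of them a member. Over both sexes 2 of 7 were called, again Fgf2 and Fgfr1, beside 18.9% of 15772 genes (9.8% higher ventrally and 9.06% higher dorsally). The median of the 7 log2 changes stood at 0.27 for females, 0.48 for males and 0.40 for the joint fit, beside 0.01, 0.03 and 0.03 for all genes.

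When the sexes were compared for their regional change, limma called 0 of 7 members, beside 2.73% of all genes (2.12% with a larger and 0.615% with a smaller ventral-minus-dorsal change in males). Here 1 member (Fgf2) had an unadjusted p under 0.05, and edgeR and DESeq2 called 0 members. For sex itself limma also called 0 of 7, beside 10.9% of all genes (4.4% higher in males and 6.54% higher in females). There 1 member (Fgf1) had an unadjusted p under 0.05, edgeR called 0 members and DESeq2 called 1, Fgf1 (adjusted p = 0.0399). The 2 members other than Fgf1 with the largest size of difference by sex were Fgfr2 (log2 -0.60, limma SE 0.289, adjusted p = 0.208) and Fgf2 (0.55, SE 0.409, adjusted p = 0.428).

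To set the members against each other, values were divided by the exonic length of each gene. On this scale of normalized CPM per kilobase, the median level over the 14 libraries was highest for Fgf1 (4.11), followed by Fgf18 (3.87), Fgfr1 (3.11), Fgf9 (2.73), Fgf2 (1.55), Fgfr2 (0.578) and Fgfr3 (0.204). Neighbours at the top were not separated: Fgf1 was above Fgf18 in 6 of 14 libraries, Fgf18 above Fgfr1 in 8 and Fgfr1 above Fgf9 in 9. Fgf9 was above Fgf2 in 10 libraries and Fgf2 above Fgfr2 in 12. Only the lowest step, Fgfr2 above Fgfr3, held in all 14. Fgf18 thus ranked near Fgf1 per length despite its low normalized CPM.

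Fgfr1 dominated the summed per-length level of the 3 receptors. Its share was 78.2 to 84.2% in female ventral, 53.7 to 78.8% in female dorsal, 80.0 to 85.2% in male ventral and 77.8 to 89.7% in male dorsal libraries. Fgfr2 took 43.6% in female dorsal library 1 and 10.2 to 16.7% in all other libraries. Fgfr3 took 0.132 to 7.78% in the libraries of settled region and 14.3% in the library of disputed region.

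As a description, the listed genes whose log2 levels ran most like those of each member over the 14 libraries were looked up, among genes with a mean of at least 5. Fgfr3 was left out, since it was under 1 normalized CPM in some libraries. Fgfr1 ran with Tcf7l1, a transcription factor of the Wnt pathway (Pearson r = 0.949 over 14 libraries), and Smo, the signal transducer of the Hedgehog pathway (r = 0.945). Fgf2 ran with the transcripts Gm9973 (r = 0.979) and AC160336.1 (r = 0.976), both of which were much more abundant, with medians of 171.7 and 958.2 normalized CPM. Fgfr2 ran with Shox2, a transcription factor of the sinus venosus and pacemaker region (r = 0.9), which stood at 121 normalized CPM in female dorsal library 1 and at 3.43 to 20.7 in the others, and with Me1 (r = 0.863). Fgf1 ran with Sdr39u1 (r = 0.891) and Apeh (r = 0.877), Fgf9 with Lrch4 (r = 0.846) and Cd38 (r = 0.791), and Fgf18 with Zfp691 (r = 0.846) and Nsd2 (r = 0.843). Lrch4 was at the floor (0.0256 normalized CPM) in male ventral library 4, where Fgf9 was lowest, and at 3.14 to 13.4 in the others. All these genes share libraries and depth with the members, and no test was made.

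The remaining genes of FGF signalling were taken from 7 lists by role, 68 genes of which 54 are listed. In females 18 of 52 tested were higher ventrally and 2 higher dorsally, beside 14.5% and 13.3% of all genes, with a median log2 change of 0.60 beside 0.01 for all genes. Fgf8 was the 1 listed gene of 11 other ligands, with 3.19 ± 2.54 normalized CPM ventrally and 0.323 ± 0.477 dorsally (n = 3 each; log2 change 1.54, limma adjusted p = 0.0378). With that dorsal mean no dorsal library reached 1, so Fgf8 entered the test only through its ventral libraries. Its call is therefore not independent of the filter, and its dorsal level is near the floor. Of 6 other receptors and binding proteins tested, 3 were higher ventrally and 1 dorsally. Fgfbp1, a carrier that releases FGFs from the matrix, was at 99.2 ± 48.3 ventrally and 15.1 ± 12.4 dorsally (log2 change 2.84, limma adjusted p = 0.00448). Flrt1, a membrane protein that binds FGF receptors, was at 15.4 ± 2.41 and 3.72 ± 1.57 (log2 change 1.83, limma adjusted p = 0.00311). Fgfbp3, another carrier, was at 2.16 ± 0.516 ventrally and 7.51 ± 2.71 dorsally (log2 change -1.40, limma adjusted p = 0.0135).

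Several genes of the heparan sulphate co-receptor were called in females, where 14.5% of all genes were higher ventrally and 13.3% higher dorsally. Among the core proteins 3 of 9 were higher ventrally and 0 higher dorsally, led by Sdc4, a syndecan, at 149.9 ± 40.3 normalized CPM ventrally and 30.1 ± 10.96 dorsally (n = 3 each; log2 change 2.31, limma adjusted p = 8.12e-04). Among the enzymes that build or trim the chains 6 of 12 were higher ventrally and 0 higher dorsally. Sulf1, which removes sulphate groups from the chains, was at 309.4 ± 99.8 ventrally and 84.9 ± 8.34 dorsally (log2 change 1.81, limma adjusted p = 7.90e-04). Inside the cell, 3 of 8 adaptors and 2 of 13 feedback regulators and targets were higher ventrally and 0 of either dorsally; the 2 of 13 are near the share of all genes. The feedback genes called were Spry1 (log2 change 1.12, limma adjusted p = 0.0172) and Spry2 (0.95, limma adjusted p = 0.0234), inhibitors of receptor signalling, whereas Dusp6, a phosphatase of ERK, was at 29.8 ± 5.01 ventrally and 36.2 ± 3.93 dorsally (log2 change -0.28, limma adjusted p = 0.282). Naming these 3 feedback genes was a choice made after their values were seen. The epicardial, fibroblast, lymphatic and macrophage markers that were higher in the same ventral libraries are given beside Fgfr1, and their part in the pathway values was not tested.

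Fgf13 belongs to the FGF homologous factors, which stay inside the cell and bind sodium channels. It was at 19.4 ± 1.83 normalized CPM in female ventral and 84.7 ± 23.9 in female dorsal libraries (n = 3 each; log2 change -2.04, limma adjusted p = 4.16e-04), the largest dorsal excess in these lists. In males it was at 31.3 ± 12.5 ventrally (n = 4) and 61.3 ± 7.15 dorsally (n = 3), with a log2 change of -1.02 (limma adjusted p = 0.285). Ventricular cardiomyocyte markers had a median log2 change of -0.35 in females and -0.60 in males, with 7 of 8 below 0 in each sex. None of these 7 was called in either sex (lowest limma adjusted p in females 0.0774, Actc1). The 1 called, Ryr2 in females, was higher ventrally (log2 change 0.65, limma adjusted p = 0.0256). Over both sexes 1 of 8 was called, Actc1, higher dorsally (log2 change -0.76, limma adjusted p = 0.0219). Of 5 atrial markers tested in females, Nppa was called, higher dorsally (-3.93, limma adjusted p = 0.0101). The part of either list in the Fgf13 value was not tested.

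In males 0 of 54 pathway genes were called, beside 0 of all 14917 genes tested. Of the 54, 38 lay above 0, and the median log2 change was 0.25 beside 0.03 for all genes. The smallest p values there belonged to Fgf13 and to Sos2, an exchange factor for Ras (log2 change 0.80, limma adjusted p = 0.302). Over both sexes 14 of 54 were higher ventrally and 1 (Fgf13, log2 change -1.50, limma adjusted p = 0.0051) higher dorsally, beside 9.8% and 9.06% of all genes. The 4 largest ventral changes were those of Sdc4 (1.58, adjusted p = 0.022), Flrt1 (1.23, 0.0279), Fgf8 (1.12, 0.046) and Hs3st1, a heparan sulphate sulphotransferase (1.09, 0.0365), all by limma. Fgf8 was also tested in males, so here male libraries met the filter besides the female ventral ones. Its mean was under 1 normalized CPM in female dorsal (0.323) and male dorsal (0.737) libraries. The count of 15 fell to 5 without female ventral replicate 2 and to 5 without female dorsal replicate 2. Leaving out female ventral replicate 3 gave 6, and leaving out male ventral replicate 6 or male dorsal replicate 4 gave 8 each.

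**Figure D4:**
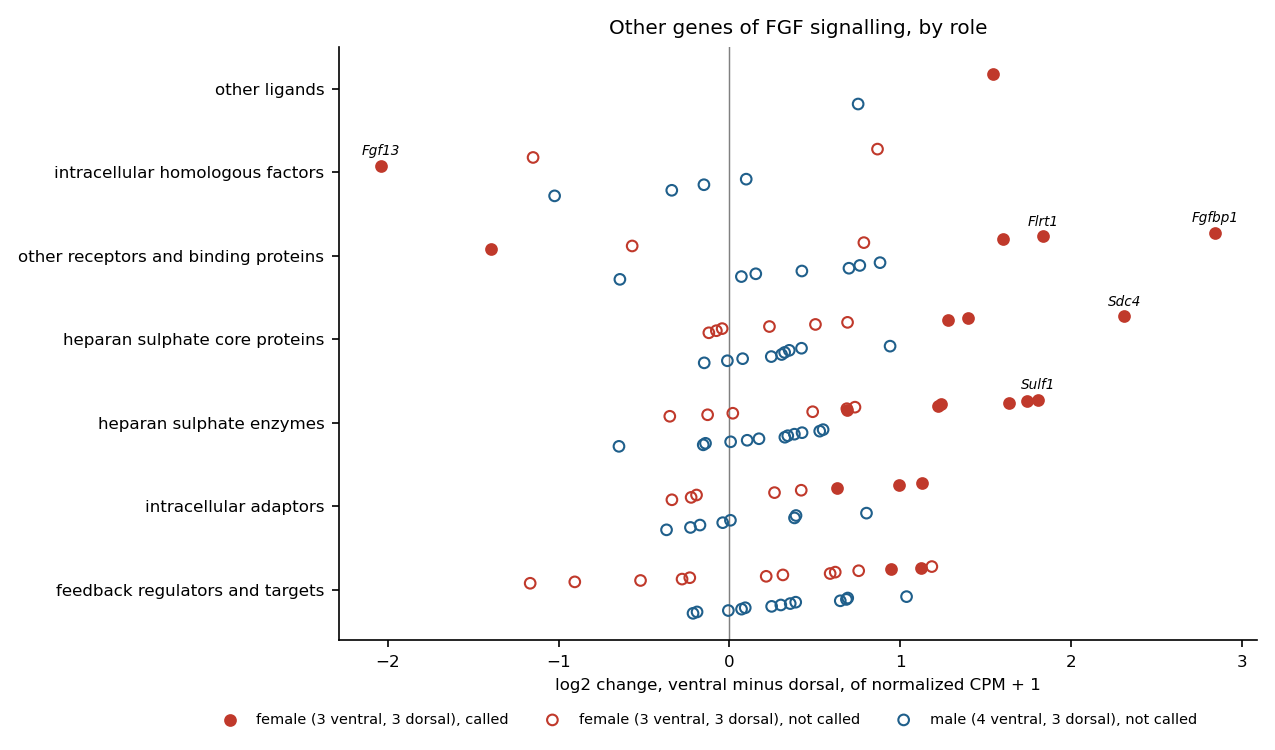
Log2 change of normalized CPM + 1, ventral minus dorsal, for the other listed genes of FGF signalling, arranged by role, in female hearts (red) and male hearts (blue); filled points have a limma adjusted p under 0.05. In females 18 filled points lie to the right of 0 and 2 to the left, and no male point is filled.

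The regional change differed between the sexes for 3 of 54 pathway genes, beside 2.73% of all genes. Fgfbp3 had a difference of 2.28 log2 units (limma, SE 0.481, adjusted p = 0.0182), with 2.13 ± 0.883 normalized CPM in male ventral and 0.678 ± 0.43 in male dorsal libraries, opposite to the order in females. Dusp4, a phosphatase of MAP kinases, differed by 1.94 (limma, SE 0.49, adjusted p = 0.0488) at levels of 0.371 to 1.84 normalized CPM in the group means. Ext1, which polymerises heparan sulphate, differed by -1.29 (limma, SE 0.308, adjusted p = 0.036), its ventral excess being larger in females. None remained called without female ventral replicate 3 or without female dorsal replicate 3. The count was 1 when female ventral replicate 2, female dorsal replicate 1 or 2, male ventral replicate 4 or male dorsal replicate 5 or 6 was left out.

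By sex, 4 of 54 pathway genes were called, beside 10.9% of all genes. Dusp5 (log2 -1.14, limma adjusted p = 0.00603), another MAP kinase phosphatase, and Spred1 (-0.83, limma adjusted p = 0.0134), an inhibitor of Ras signalling, were lower in males. Ext2 (0.54, limma adjusted p = 0.0188), the partner of Ext1, and Sdc1 (0.50, limma adjusted p = 0.0396), a syndecan, were higher in males. The count was 10 with DESeq2, beside 2319 of 15772 genes. It was 7 with the disputed library taken as dorsal (beside 2048 of 15870 genes) or as ventral (beside 2012 of 15870). Averaging libraries of the same number gave 1, beside 944 of 15772 genes. It was 9 without male ventral replicate 4 and 2 without female ventral replicate 1. The count of pathway genes thus moved with the setting, as did that of all genes where given. In the same comparison 5 of 10 epicardial markers were higher in males, and their part in these differences was not tested.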

How the data were processed

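Per the labels and the study's methods, the authors trimmed reads with cutadapt, quantified them per gene with RSEM (1.3.1 per the labels) on the GRCm38 transcriptome, and normalized with limma. RSEM divides reads that match several transcripts in proportion to their estimated abundance. The deposited table holds 15894 genes, each with a signal in normalized CPM per library. It resolved into whole numbers of reads for 100% of values (tolerance 0.02 reads). Since RSEM can assign fractions of a read, these numbers, called reads here, may be rounded estimates.

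The ligands, receptors, pathway lists and marker lists were chosen with earlier results of these data known. Named are the members, genes overlapping their exons, up to 4 called pathway genes with the largest change per direction and comparison (with under 3 called, the 2 of smallest p), and the 2 genes most like each member that reached 1 in all 14 libraries (all but Fgfr3).

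Values were transformed as log2(value + 1) and fitted with limma (version 3.58.1, R 4.3.3, trended eBayes); a gene was tested if it reached 1 in 3 or more of the libraries fitted. Each of the 5 comparisons (regions in females, in males and in both sexes, their difference, and sex) was adjusted by Benjamini-Hochberg over all genes tested, called under 0.05. P-values of the main fits measure the spread between libraries, with no term for the pairing described below. Other settings tried were 0.1 as pseudocount, all genes unfiltered, a mean of at least 10, median-of-ratios and quantile scaling, eBayes without trend, edgeR 4.0.16 and DESeq2 1.42.0 on recovered reads, a correction for GC content and length (splines, 5 degrees of freedom), a replicate block, each library left out, the disputed library as dorsal or ventral, and averaging of same-numbered libraries for sex. Counting Fgf2 with Nudt6 as 1 locus was added after seeing the data. The fitting script was tested on simulated counts.

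Dorsal and ventral libraries of 1 sex share numbers. Over 15772 genes, deviations of same-numbered libraries from their group means correlated at 0.187, 0.169 and 0.27 (female 1 to 3) and at 0.427, 0.175 and 0.351 (male 4 to 6), so the numbers were taken as pairing the libraries. This rests on the data, since no source says what a number marks. The main fits did not use the pairing, which entered only the replicate block and the averaging. In the main fit for sex, same-numbered libraries thus counted as separate. With them averaged, genes called by sex went from 1726 to 944 of 15772. Positions and exon overlaps are from GENCODE M21 on GRCm38.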

Additional observations from a re-analysis of the deposited data

Results flagged for a closer look

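The regional change (ventral minus dorsal) of 3 pathway genes differed between the sexes by the limma interaction over 13 libraries, given here as males minus females in log2 units. It was 2.28 for the carrier Fgfbp3 (adjusted p = 0.0182), -1.29 for the heparan sulphate polymerase Ext1 (adjusted p = 0.036) and 1.94 for the phosphatase Dusp4 (adjusted p = 0.0488). Sex cannot be told apart from the series of pools. No member differed in this way, and by Dixon's criterion no male ventral value of a member stood apart from the other 3.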

How the results depend on the processing

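The female calls of Fgf2 and Fgfr1 held in all 17 alternatives (adjusted p 1.46e-04 to 0.0311 and 8.10e-05 to 0.0280), as did the call of Fgfr1 over both sexes in all 26 (adjusted p 1.95e-05 to 0.0246), while that of Fgf2 over both sexes was lost in 3 of 26 (adjusted p 0.00702 to 0.0569). The number of members called over both sexes was 1 with edgeR and ranged from 1 to 2 when libraries were left out. With Fgf2 and Nudt6 as 1 locus it was 1 in females and 1 over both sexes. By sex it was 1 with a mean of at least 10 and 1 with DESeq2 (Fgf1, adjusted p 0.0399 to 0.157 over 27 alternatives). Of 794 values of single members under the alternatives other than the joint locus, 35 changed sign, none of them of a called change. As 1 locus, Fgf2 changed by -0.0065 in females, 0.71 between the sexes' regional changes and -0.39 by sex. In females, Fgf9 was -0.12 with quantile scaling, -0.019 with edgeR and -0.020 with DESeq2 (-0.14 to 0.22 with libraries left out). Fgfr2 was -0.056, -0.16 and -0.15 under the same settings (-0.32 to 0.75), and Fgf1 was 0.047 with the GC and length trend removed, with or without the block (-0.27 to 0.026). In males, Fgf18 was 0.21 with the replicate block, 0.19 with block and trend removal and 0.078 with the disputed library as dorsal (-0.35 to 0.29), and Fgf9 ranged from -0.45 to 0.00073. Over both sexes Fgf18 was -0.10 with quantile scaling and -0.015 with the trend removed (-0.021 to 0.28), and Fgf9 ranged from -0.24 to 0.012. For the difference between the sexes' regional changes, the disputed library as dorsal gave 0.024 for Fgf1 (-0.25 to 0.041) and -0.21 for Fgfr3 (-0.25 to 0.44). Fgf18 ranged from -0.62 to 0.014 and Fgfr2 from -0.13 to 0.93. By sex, Fgfr1 was 0.0079 with same-numbered libraries averaged, and Fgf9 ranged from -0.011 to 0.24. The block changed no call among the members. For Nudt6, which is not a member, it changed that of the difference between the sexes' regional changes. The cause of these changes was not tested. At 0 to 95 reads per library, Fgfr3 was too shallow to show small changes.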
